A study of Mus musculus with 56 samples.

Results

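The 10 genes described here make up the MHC class II antigen presentation pathway of the mouse: the transactivator gene Ciita, the classical chain genes H2-Aa, H2-Ab1 and H2-Eb1, the invariant chain gene Cd74, the peptide exchange genes H2-DMa, H2-DMb1 and H2-DMb2, and the modulator genes H2-Oa and H2-Ob. They were chosen by name, as the rows of the deposited expression table whose Entrez IDs map to these symbols. All 10 were found among 24424 genes, and all 10 passed the filter on low values (a mean of at least 4 on the log2 scale over all libraries), which left 12133 genes tested. Expression was measured by RNA-seq in sorted bone marrow progenitors of C57BL/6 mice. Mutant mice carried the genotype Tet2-/-Flt3ITD and are called T2F3: Tet2, whose enzyme oxidizes methylated cytosine in DNA, was missing, and Flt3, a receptor tyrosine kinase of early progenitors, held the internal tandem duplication that keeps it active. The groups were 3 T2F3 MPP, 4 WT MPP, 3 T2F3 GMP and 5 WT GMP libraries. Multipotent progenitors (MPP) were sorted as lineage-negative cells with Sca-1, c-Kit and CD48 and without CD150, and granulocyte-macrophage progenitors (GMP) as lineage-negative, Sca-1-negative cells with c-Kit, CD34 and the Fc-gamma receptors. Every mutant library carried both alleles and every WT library neither, so the effects of the alleles cannot be told apart. The labels used here give neither the ages of the mice nor the animal behind each library, so p-values rest on the spread among these libraries alone, which may be technical.

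MHC class II molecules carry peptides from the endosomal pathway to the cell surface, where CD4+ T cells read them. An alpha and a beta chain assemble in the endoplasmic reticulum around the invariant chain, which blocks the groove and steers the complex to endosomes, where proteases trim it. H2-DM then exchanges the remaining invariant chain fragment for peptide, and H2-DO restrains H2-DM. CIITA, a coactivator that does not bind DNA by itself, switches these genes on together through the factors seated on a conserved set of promoter boxes. High expression is known from dendritic cells, B cells and activated macrophages, and human blood progenitors are known to carry class II as well.

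The promoter boxes are shown because they are the feature that ties the members to CIITA. RefSeq (assembly GRCm38.p6) gave a window from 250 bases before to 50 bases after the start for 7 of the 10 members, and the stretches below run 5′ to 3′ on the gene's strand. Capitals mark the letters of the X box core (GCAAC, or a variant in the last pair) and of the Y box (TGATTGG, an inverted CCAAT box). H2-Aa lies on the minus strand at chr17:34287857-34287914, and the others lie on the plus strand, H2-Eb1 at chr17:34305766-34305822, H2-Oa at chr17:34092293-34092350, H2-Ob at chr17:34238808-34238862, H2-DMb1 at chr17:34153087-34153144 and H2-DMb2 at chr17:34145116-34145173.
H2-Aa: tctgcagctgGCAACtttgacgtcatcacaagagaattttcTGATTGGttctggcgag
H2-Eb1: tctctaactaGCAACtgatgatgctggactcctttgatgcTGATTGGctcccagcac
H2-Oa: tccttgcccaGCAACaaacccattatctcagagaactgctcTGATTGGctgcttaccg
H2-Ob: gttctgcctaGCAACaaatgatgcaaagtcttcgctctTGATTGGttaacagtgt
H2-DMb1: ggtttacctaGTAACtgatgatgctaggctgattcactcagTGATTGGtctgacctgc
H2-DMb2: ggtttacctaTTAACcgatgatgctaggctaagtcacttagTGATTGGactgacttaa

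A stretch was printed only where the X box core came before the Y box with 20 to 30 bases between. The shared order of these 6 promoters was thus fixed by the choice. Between the boxes lay 26 bases in H2-Aa, H2-Oa, H2-DMb1 and H2-DMb2, 25 in H2-Eb1 and 23 in H2-Ob. H2-Aa, H2-Eb1, H2-Oa and H2-Ob held GCAAC, whereas the H2-DMb1 core read GTAAC and the H2-DMb2 core TTAAC. The motifs and their spacing of 20 to 30 bases were chosen after the members' sequences were seen. Over all 32851 promoter windows, on either strand, GCAAC was found in 35.2%, TGATTGG in 7.82% and both in this order and spacing in 0.103%. With NNAAC in place of GCAAC the share was 1.05%, and the other strand of a window can also give overlapping matches. The members were read on the gene's strand, where the shares of the pair were 0.0487% with GCAAC and 0.432% with NNAAC. Both listed starts of H2-DMa lacked the pair, which says only that the pair is not in those windows. GCAAC alone stood on the other strand of a listed H2-DMa start. Ciita, Cd74 and H2-Ab1 had no window in the table.

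Genes of the sorting gates were checked first. Fcgr3, which encodes one of those receptors, averaged 10.74 in T2F3 GMP and 11.01 in WT GMP, against 8.86 in T2F3 MPP and 8.89 in WT MPP. Ly6a (Sca-1) averaged 7.61 in T2F3 GMP and 8.32 in T2F3 MPP, against 7.12 in WT GMP and 7.70 in WT MPP, so it was lower in GMP within each genotype and higher in T2F3 within each population. Kit ran from 11.27 to 11.45 in T2F3 MPP, below the 12.12 to 12.41 of WT MPP, and from 10.98 to 11.48 in T2F3 GMP, against 11.25 to 11.69 in WT GMP. Slamf1 (CD150) averaged between 1.94 and 2.95 in all groups, and Cd34 between 11.42 and 12.58. Tet2 averaged between 9.75 and 10.12 in the 4 groups, and a value for the whole gene cannot check a partial deletion. Flt3 averaged 11.32 in T2F3 MPP and 11.38 in WT MPP, and 10.09 in T2F3 GMP and 8.81 in WT GMP. Read depth is unknown, because the deposited values are regularized log2 values without counts, which understate differences of low genes. The lowest correlation across tested genes between libraries of a group was 0.973. Ribosomal protein genes lay apart in 3 GMP libraries, by 0.81 in T2F3 GMP 2, -0.63 in T2F3 GMP 3 and 1.08 in WT GMP 1 (log2, median over 78 genes, against the other libraries of the group). Without T2F3 GMP 2 and WT GMP 1 together, all genotype calls of the 10 genes given below were kept in both populations, as were the call of H2-Ob in the difference of effects and the calls of the WT step, while the T2F3 step had 6 of the 10 genes lower, against 9.

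The first question was how the T2F3 genotype changed the pathway in each population. All 10 genes were higher in T2F3 than in WT in MPP, and all 10 were higher in GMP. In MPP 20.7% of tested genes were called higher and 19.6% lower, and in GMP 9.25% higher and 6.04% lower (limma with a Benjamini-Hochberg adjusted p below 0.05). The median difference of the 10 genes was 2.05 in MPP (0.73 to 3.01), where the median of all tested genes was -0.02, and 2.16 in GMP (0.92 to 3.28), where it was also -0.02. Every T2F3 library lay above every WT library for each of the 10 genes in both populations, where the share of tested genes with such a gap was 28.1% in MPP and 9.52% in GMP. Summed over the 10 genes on the linear scale, the log2 level was 15.40 to 16.25 in T2F3 MPP against 12.87 to 13.66 in WT MPP, and 15.01 to 15.19 in T2F3 GMP against 12.32 to 12.54 in WT GMP. In bulk samples, more cells that express these genes and more RNA per cell cannot be told apart. With each library centred on its median, all 10 were still called higher in both populations, although the share of all MPP calls that were higher was then 40.2%, against 51.3%.

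**Figure D1:**
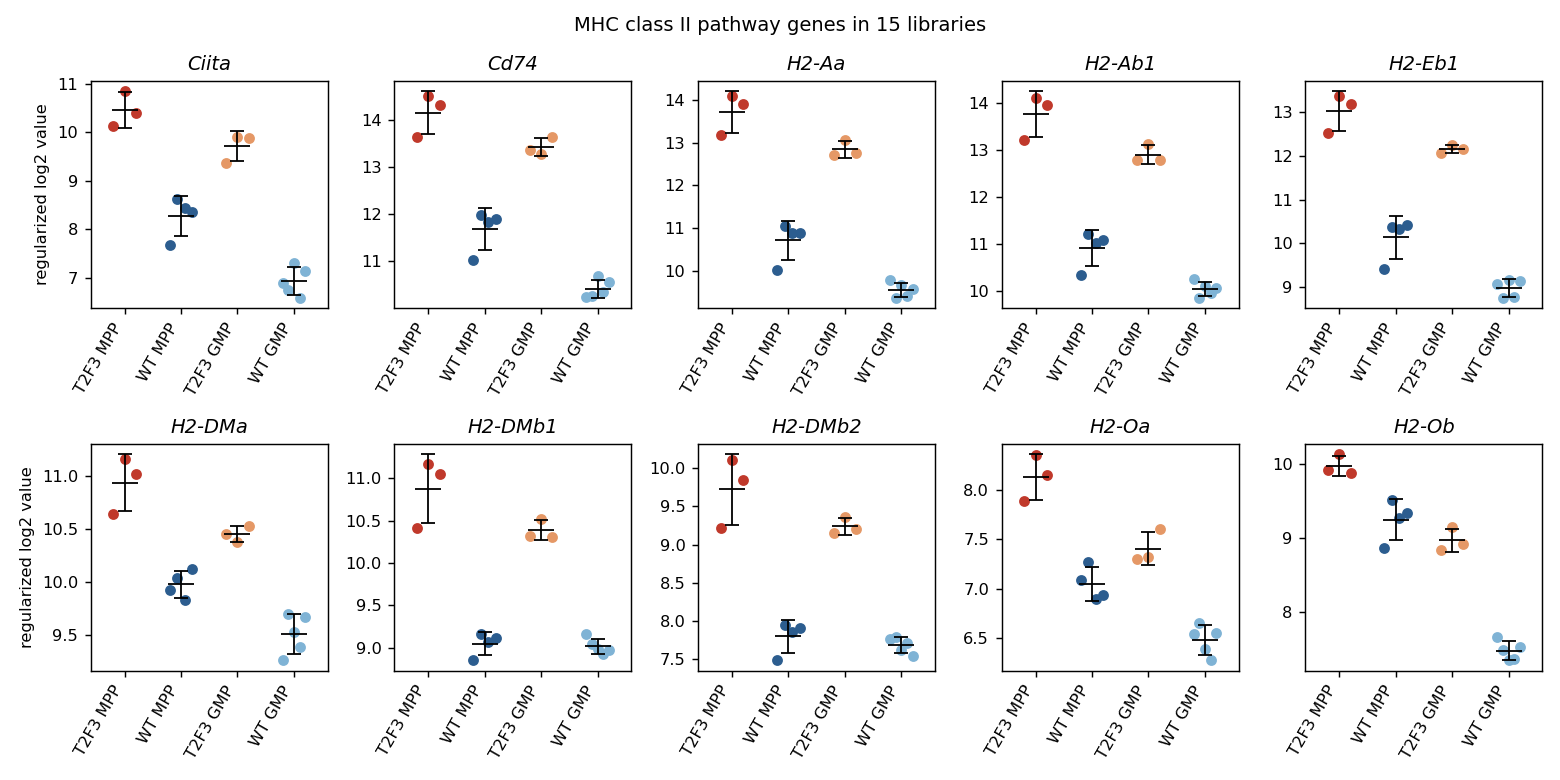
Regularized log2 value (vertical axis, a separate scale for each gene) of the 10 MHC class II pathway genes in 15 libraries, with 1 point per library and the mean ± SD of each group. In every panel the T2F3 MPP points lie above the WT MPP points and the T2F3 GMP points above the WT GMP points; the Cd74 points run from 13.64 to 14.50 in T2F3 MPP and from 11.01 to 11.97 in WT MPP.

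The transactivator Ciita is the switch of the pathway, and it was higher in the mutant in both populations. Below, values within a group follow the replicate numbers of the labels, 1 to 3 in T2F3, 1, 3, 4 and 5 in WT MPP and 1 to 5 in WT GMP. Ciita stood at 10.12, 10.84 and 10.40 in T2F3 MPP, against 7.68, 8.63, 8.43 and 8.36 in WT MPP. In GMP it stood at 9.36, 9.90 and 9.87 in T2F3, against 6.90, 6.75, 7.31, 6.59 and 7.13 in WT. The groups did not overlap: the lowest T2F3 library was 1.49 above the highest WT library in MPP and 2.05 above it in GMP. In MPP the difference was 2.18 ± 0.22 (log2, SE), or 4.53-fold, with a limma adjusted p of 2.23e-06. In GMP it was 6.85-fold, with an SE of 0.21 on the log2 scale and a limma adjusted p of 2.03e-07. Ciita ranked 77th from the top among 12133 tested genes by its MPP difference and 16th by its GMP difference.

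The classical chains form the peptide-presenting molecules I-A (H2-Aa with H2-Ab1) and I-E. They had the largest genotype differences among the 10 genes in MPP, and H2-Aa and H2-Eb1 had the largest in GMP. The alpha chain gene H2-Aa stood at 13.17, 14.08 and 13.90 in T2F3 MPP, against 10.03, 11.05, 10.90 and 10.88 in WT MPP. In GMP its values were 12.70, 13.06 and 12.76 in T2F3, against 9.78, 9.38, 9.67, 9.41 and 9.57 in WT. Between the lowest T2F3 and the highest WT library lay 2.13 in MPP and 2.91 in GMP. These differences correspond to 8.03-fold in MPP (limma adjusted p = 1.08e-07) and 9.69-fold in GMP (limma adjusted p = 6.46e-08), ranks 14 and 2 of 12133.

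The beta chain gene of I-A, H2-Ab1, moved with H2-Aa. It stood at 13.22, 14.12 and 13.97 in T2F3 MPP, against 10.34, 11.21, 11.02 and 11.09 in WT MPP. In GMP it stood at 12.79, 13.14 and 12.78 in T2F3, against 10.26, 9.86, 10.11, 9.95 and 10.06 in WT. Its differences were 7.24-fold in MPP and 7.23-fold in GMP, with limma adjusted p of 8.79e-08 and 1.03e-07. The I-E beta chain gene H2-Eb1 stood at 12.52, 13.37 and 13.20 in T2F3 MPP, against 9.41, 10.38, 10.34 and 10.42 in WT MPP. In GMP its values were 12.08, 12.26 and 12.16 in T2F3, against 9.08, 8.76, 9.16, 8.77 and 9.13 in WT. The T2F3 libraries of H2-Eb1 were again well above all WT libraries, by at least 2.10 in MPP and 2.92 in GMP. H2-Eb1 was 7.43-fold higher in MPP (2.89 ± 0.23, SE, limma adjusted p = 1.30e-07) and 9.09-fold higher in GMP (limma adjusted p = 7.57e-08). H2-Ea, the I-E alpha chain gene, was listed at 0 in all 15 libraries and is annotated in RefSeq as a transcribed pseudogene; mice of the C57BL/6 strain are known to lack surface I-E. H2-Eb2, a further beta chain gene, lay between 2.67 and 4.83 and was not tested because of its low mean.

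Cd74 encodes the invariant chain, the partner that newly made class II chains need, and it also rose in both populations. It stood at 13.64, 14.50 and 14.32 in T2F3 MPP, against 11.01, 11.97, 11.82 and 11.89 in WT MPP. In GMP it stood at 13.36, 13.27 and 13.63 in T2F3, against 10.24, 10.25, 10.67, 10.35 and 10.55 in WT. The gap between the genotypes was 1.67 in MPP and 2.61 in GMP. In MPP the difference was 2.48 ± 0.22 (SE), or 5.58-fold (limma adjusted p = 5.54e-07), and in GMP Cd74 was 8.05-fold higher (limma adjusted p = 1.03e-07). Cd74 and Ciita lie outside chromosome 17, which holds the 8 H2 members.

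The H2-DM genes encode the peptide exchange factor, with H2-DMa for the alpha chain and H2-DMb1 and H2-DMb2 for alternative beta chains. All 3 rose by less than the classical chains, H2-DMa least. H2-DMa stood at 10.64, 11.16 and 11.02 in T2F3 MPP, against 9.92, 10.04, 9.83 and 10.12 in WT MPP. In GMP it stood at 10.45, 10.38 and 10.53 in T2F3, against 9.26, 9.70, 9.53, 9.39 and 9.67 in WT. It was 1.95-fold higher in MPP (0.96 ± 0.13, SE, limma adjusted p = 3.50e-05) and 1.93-fold higher in GMP (0.95 ± 0.12, limma adjusted p = 3.86e-05). The beta chain genes differed more between the genotypes. H2-DMb1 stood at 10.41, 11.17 and 11.05 in T2F3 MPP, against 8.85, 9.16, 9.07 and 9.11 in WT MPP. In GMP its values were 10.32, 10.52 and 10.31 in T2F3, against 9.16, 9.04, 8.98, 8.92 and 8.97 in WT. H2-DMb1 was 3.56-fold higher in MPP (1.83 ± 0.14, SE, limma adjusted p = 1.12e-07) and 2.58-fold higher in GMP (1.37 ± 0.13, limma adjusted p = 2.24e-06). H2-DMb2 stood at 9.21, 10.11 and 9.84 in T2F3 MPP, against 7.49, 7.95, 7.86 and 7.91 in WT MPP. In GMP it stood at 9.15, 9.36 and 9.20 in T2F3, against 7.77, 7.79, 7.62, 7.71 and 7.55 in WT. H2-DMb2 was 3.78-fold higher in MPP (limma adjusted p = 3.04e-07) and 2.91-fold higher in GMP (limma adjusted p = 2.62e-06). H2-DMb1 and H2-DMb2 are near-identical neighbouring copies, so how reads were split between them is uncertain.

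H2-DO, built from H2-Oa and H2-Ob, is the brake on H2-DM and is best known from B cells. Both genes were higher in the mutant, by less than the classical chains. H2-Oa stood at 7.89, 8.35 and 8.15 in T2F3 MPP, against 7.09, 7.27, 6.90 and 6.94 in WT MPP. In GMP it stood at 7.30, 7.32 and 7.60 in T2F3, against 6.54, 6.66, 6.39, 6.28 and 6.56 in WT. The difference was 1.08 ± 0.13 (SE) in MPP (limma adjusted p = 1.66e-05) and 0.92 ± 0.13 in GMP (limma adjusted p = 8.30e-05). H2-Ob stood at 9.91, 10.13 and 9.88 in T2F3 MPP, against 8.86, 9.51, 9.27 and 9.33 in WT MPP. In GMP its values were 8.84, 9.14 and 8.91 in T2F3, against 7.66, 7.48, 7.35, 7.36 and 7.52 in WT. H2-Ob had the smallest MPP difference of the 10 genes, with the genotypes 0.37 apart, whereas in GMP they lay 1.17 apart. It was 1.66-fold higher in MPP (0.73 ± 0.13, limma adjusted p = 6.13e-04) and 2.81-fold higher in GMP (1.49 ± 0.13, limma adjusted p = 5.06e-07).

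**Figure D2:**
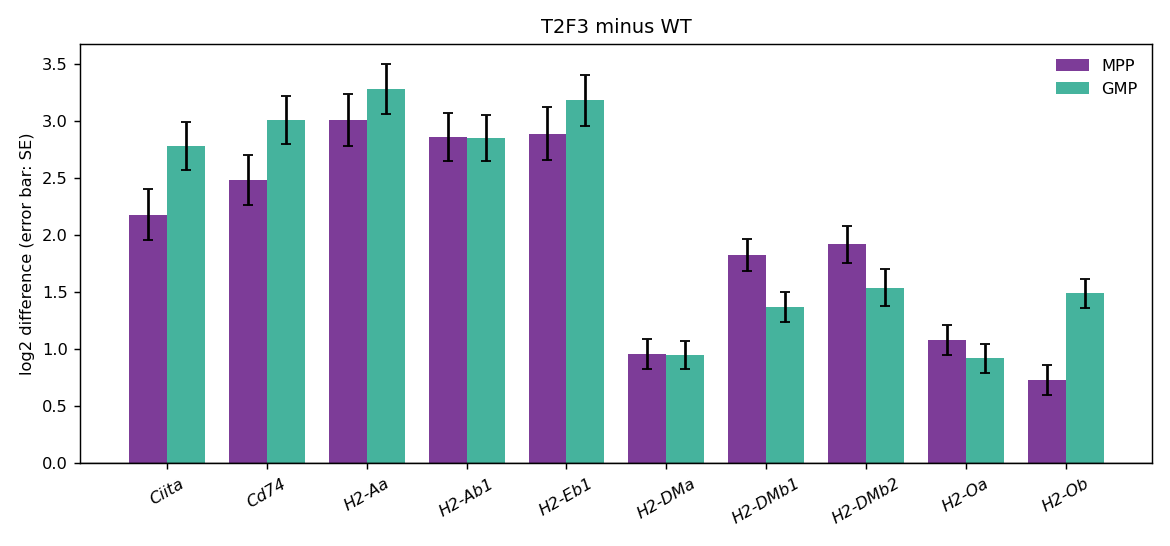
Log2 difference T2F3 minus WT (vertical axis) for each of the 10 genes (horizontal axis) in MPP and in GMP, with limma's SE as the error bar. Ciita, Cd74 and the classical chains lie between 2.18 and 3.28, the H2-DM and H2-DO genes between 0.73 and 1.92, and H2-Ob is the gene whose MPP bar (0.73) and GMP bar (1.49) differ most.

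Because the members rose by different amounts, the balance between them within each library differed between the genotypes. These balances compare each gene with another in the same library, are differences of log2 values, and are given as descriptions without a test. The classical mean (H2-Aa, H2-Ab1 and H2-Eb1) minus the mean of H2-DMa and H2-DMb1 was 2.60 ± 0.13 in T2F3 MPP (SD, n = 3) and 1.07 ± 0.36 in WT MPP (SD, n = 4). In GMP it was 2.22 ± 0.13 in T2F3 (SD, n = 3) and 0.27 ± 0.20 in WT (SD, n = 5). No T2F3 library overlapped a WT library in this balance. Absolute ratios are not read from these values, since gene lengths were not used, but the shift between groups does not depend on them. H2-Aa minus H2-Ab1, the balance of the I-A chains, was -0.07 ± 0.03 in T2F3 GMP and -0.49 ± 0.04 in WT GMP, and -0.05 ± 0.02 in T2F3 MPP and -0.20 ± 0.08 in WT MPP. The genotypes were apart in both populations, by a smaller amount in MPP.

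The classical mean minus Cd74 varied little in MPP. It was -0.65 ± 0.02 in T2F3 MPP and -1.09 ± 0.01 in WT MPP, although Cd74 itself had an SD of 0.45 in T2F3 MPP and 0.44 in WT MPP. In GMP the same balance overlapped, at -1.06 to -0.45 in T2F3 and -1.02 to -0.53 in WT. The classical mean minus Ciita was 3.05 ± 0.22 in T2F3 MPP and 2.32 ± 0.09 in WT MPP, and 2.92 ± 0.23 in T2F3 GMP and 2.60 ± 0.21 in WT GMP. It was thus higher in every T2F3 MPP library than in any WT MPP library, and overlapped in GMP.

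Within the exchange and modulator genes, the genotypes lay apart in MPP for the chains of H2-DM and in GMP for those of H2-DO. H2-DMb1 minus H2-DMa was -0.06 ± 0.14 in T2F3 MPP and -0.93 ± 0.14 in WT MPP, and -0.07 ± 0.19 in T2F3 GMP and -0.49 ± 0.24 in WT GMP. The MPP groups lay apart, and the GMP groups overlapped. The mean of H2-DMa and H2-DMb1 minus the mean of H2-Oa and H2-Ob was 1.86 ± 0.21 in T2F3 MPP and 1.37 ± 0.11 in WT MPP, without overlap. In GMP this balance of H2-DM over H2-DO was 2.23 ± 0.08 in T2F3 and 2.28 ± 0.10 in WT, with overlapping libraries. H2-Oa minus H2-Ob, the balance of the chains of H2-DO, was -1.56 ± 0.26 in T2F3 GMP and -0.99 ± 0.12 in WT GMP, which did not overlap. In MPP it was -1.84 ± 0.16 in T2F3 and -2.19 ± 0.29 in WT, which did.

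**Figure D3:**
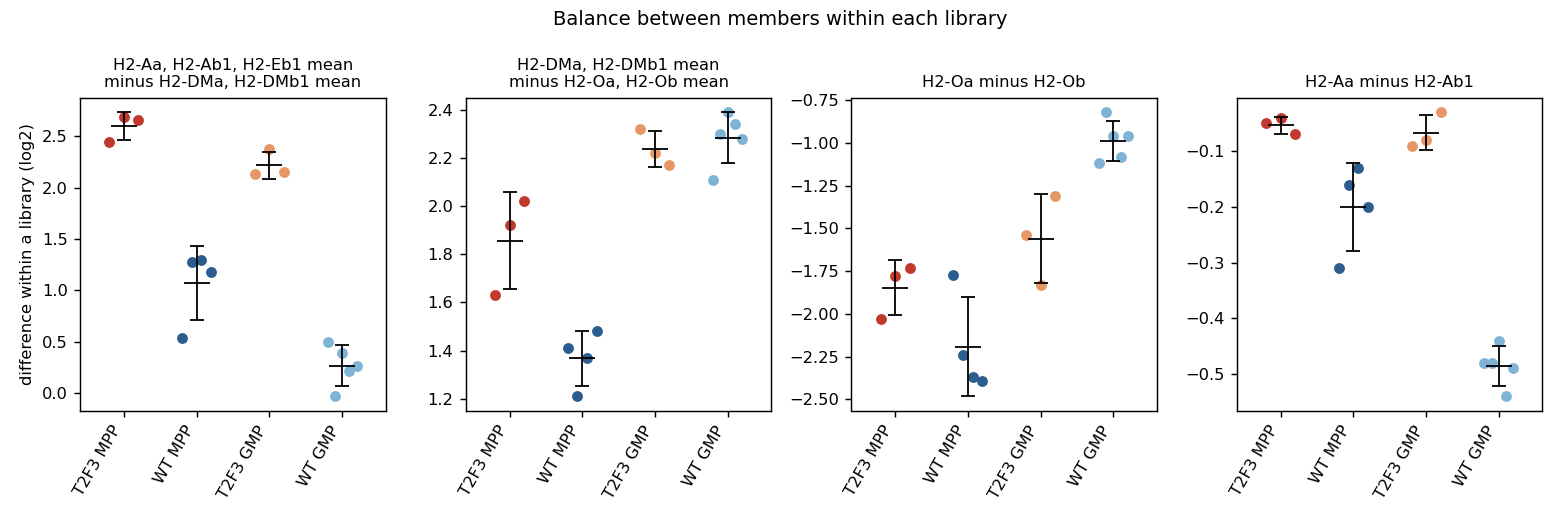
Difference between member genes within each library (vertical axes, log2, separate scales), with 1 point per library and the mean ± SD of each group. The classical chains minus H2-DM average 2.60 in T2F3 MPP and 2.22 in T2F3 GMP, against 1.07 in WT MPP and 0.27 in WT GMP, and H2-Aa minus H2-Ab1 lies nearest to 0 in both T2F3 groups.

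The next question was whether MPP and GMP differed in how far the genotype moved the pathway. Of the 10 genes, 1 passed this test of the difference and 9 did not, while 2.26% of tested genes passed in either direction. Only H2-Ob passed: its effect was larger in GMP than in MPP by 0.76 ± 0.18 (SE, limma adjusted p = 0.0435). This call was kept when WT MPP 1, T2F3 GMP 1 or WT GMP 1 was left out and lost when any 1 of the other 12 libraries was, with a limma adjusted p up to 0.139 and differences of 0.67 to 0.84. Ciita (0.60 ± 0.31, adjusted p = 0.303) and Cd74 (0.53 ± 0.31, adjusted p = 0.356) did not pass. The difference of effects was -0.46 ± 0.20 for H2-DMb1 (adjusted p = 0.212) and -0.37 ± 0.22 for H2-DMb2 (adjusted p = 0.367). Both were called without T2F3 MPP 1, at -0.69 and -0.63, with limma adjusted p of 0.0117 and 0.0483. For H2-Aa it was 0.27 ± 0.31 and for H2-Eb1 0.29 ± 0.31, and for H2-Ab1 the GMP fold divided by the MPP fold was 0.999. With 1 library left out, H2-DMa ran from -0.17 to 0.09 and H2-Oa from -0.28 to -0.05, and neither was called. The SEs of Ciita, Cd74, H2-Aa, H2-Eb1, H2-DMb1 and H2-DMb2 leave room for differences of the size seen in H2-Ob. For none of the 9 does a missed threshold show equal effects. Of all called differences of effects, 60.9% were higher in GMP, and 74.5% were with each library centred on its median.

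The last comparisons asked how the pathway differs between GMP and MPP within each genotype. In T2F3, 9 of the 10 genes were lower in GMP than in MPP and 1 was not called, where 11.7% of tested genes were called lower. In WT, 8 were lower and 2 were not called, where 23.2% of tested genes were called lower. The median difference, GMP minus MPP, was -0.74 in T2F3 and -1.01 in WT, and that of all tested genes was 0.01 and 0.03. Centring on the median lowered the share of all WT calls that were higher in GMP to 42.2%, against 52.2%. All GMP libraries lay below all MPP libraries for 8 of the 10 genes in T2F3 and for 8 in WT, against 17.4% and 20.4% of tested genes.

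H2-Ob fell most in both genotypes, by 1.01 ± 0.14 in T2F3 (SE, limma adjusted p = 5.42e-05) and by 1.77 ± 0.12 in WT (limma adjusted p = 6.53e-09). In T2F3 GMP Ciita was at 0.598 times and in WT GMP at 0.396 times its level in MPP of the same genotype (limma adjusted p = 0.035 and 3.73e-05). H2-Aa was at 0.543 times in T2F3 and 0.45 times in WT, and Cd74 at 0.601 times and 0.417 times. H2-DMb1 and H2-DMb2 were the genes not called in WT, with differences of -0.03 ± 0.12 and -0.11 ± 0.14 and overlapping libraries. In T2F3 their differences were -0.50 ± 0.15 (adjusted p = 0.0251) and -0.49 ± 0.17 (adjusted p = 0.0545), again with overlap. The T2F3 step rested on few libraries: without T2F3 MPP 2 or T2F3 MPP 3, 2 of the 10 genes were called, and without T2F3 GMP 1, 4 were.

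**Figure D4:**
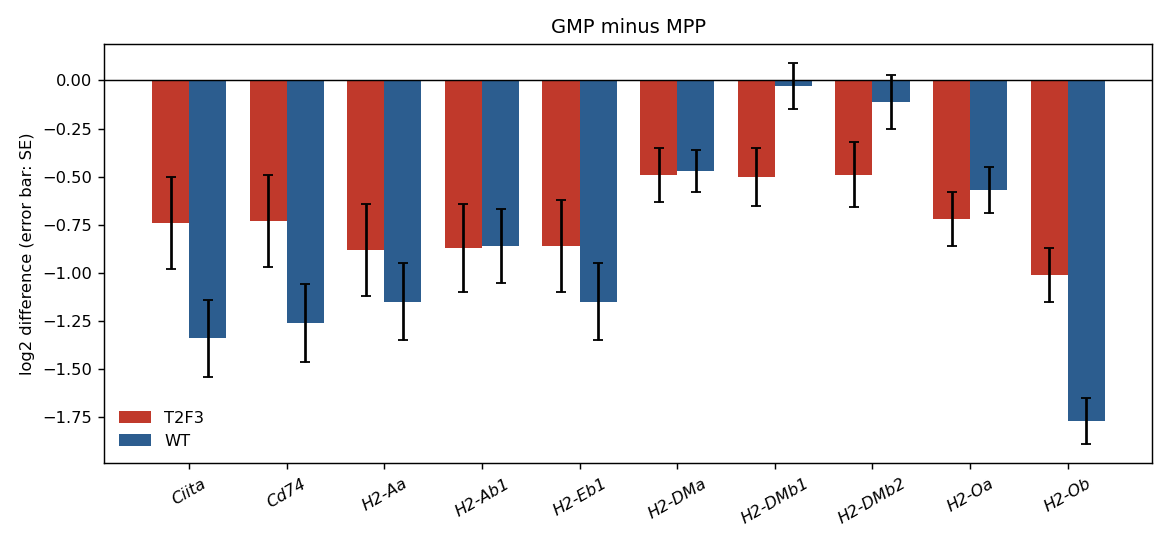
Log2 difference GMP minus MPP (vertical axis) for each of the 10 genes in T2F3 and in WT, with limma's SE as the error bar. All bars lie below 0, from -0.49 to -1.01 in T2F3 and from -0.03 to -1.77 in WT, and the WT bars of H2-DMb1 and H2-DMb2 are near 0.

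Put in order of level, 9 of the 10 genes ran from T2F3 MPP at the top through T2F3 GMP and WT MPP to WT GMP. In 7 of these 9 no neighbouring groups overlapped. H2-DMb1 and H2-DMb2 overlapped between T2F3 MPP and T2F3 GMP and between WT MPP and WT GMP. H2-Ob had the other order, T2F3 MPP, WT MPP, T2F3 GMP and WT GMP, and its WT MPP and T2F3 GMP libraries overlapped. Shares of all tested genes were counted only for pairs of groups, so nothing particular to the pathway is read from these counts.

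Within the MPP groups most of the 10 genes were high or low in the same libraries. T2F3 MPP 2 was the highest library of its group for all 10 genes, and T2F3 MPP 1 the lowest for 9, with a median of -0.73 from the other libraries of the group. WT MPP 1 was the lowest of its group for 8 genes (median -0.64) and WT MPP 3 the highest for 8. In GMP the median deviations lay between -0.14 and 0.19. T2F3 GMP 2 was the highest of its group for 7 genes and the lowest for 2, WT GMP 1 the highest for 4 and the lowest for 2, and WT GMP 2 the highest for 3 and the lowest for 3. The summed level of 12 conventional dendritic cell markers was also lowest of its group in the 2 low MPP libraries, at 11.97 in T2F3 MPP 1 and 9.47 in WT MPP 1, against up to 12.62 and 9.98 in their groups. The sums of the regulator, endosomal, surface turnover, co-stimulator, B cell and monocyte lists described below were lowest in the same 2 libraries. For B cell markers they were 8.81 and 9.47, and for monocyte and macrophage markers 13.76 and 12.66. The plasmacytoid, T and NK, and class II region neighbour sums were not lowest in WT MPP 1. Low sums in these libraries were thus not particular to dendritic cell markers. The part of any list in the spread of the class II genes was not tested. Leaving out either of these MPP libraries kept all 10 genotype calls in both populations.

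The rest of the pathway was described with further lists. Of 18 tested genes of the promoter-bound complex and of Ciita regulators, 2 rose and 5 fell in T2F3 MPP, with a median of -0.14, and 3 rose and 0 fell in T2F3 GMP, with a median of 0.01. Over all tested genes 20.7% rose and 19.6% fell in MPP, and 9.25% rose and 6.04% fell in GMP, and nothing particular to the list is read from counts of this size. Irf8, a factor of dendritic and monocytic development, rose by 1.58 ± 0.20 in MPP and 0.94 ± 0.19 in GMP (SE, limma adjusted p = 2.06e-05 and 0.00271). It ran from 12.03 to 12.90 in T2F3 MPP, against 10.70 to 11.19 in WT MPP. Irf4, a related factor, rose in GMP (1.60 ± 0.32, adjusted p = 0.0025) and stood at 0.54 ± 0.34 in MPP (adjusted p = 0.2). Zfp36l1, an RNA-binding protein, rose in GMP (0.73, adjusted p = 0.00174) and stood at -0.20 in MPP. The acetyltransferase Crebbp fell in MPP by 0.58 (adjusted p = 0.00302) and stood at -0.07 in GMP. The subunits of RFX and NF-Y, which sit on the X and Y boxes printed above, are named here after their values were seen. Rfx5 (-0.36), Rfxank (-0.28) and Nfyc (-0.29) were lower in T2F3 MPP, with adjusted p of 0.00928, 0.0368 and 0.0232. Rfxap, Nfya and Nfyb were not called in MPP, and none of the 6 was called in GMP, where they lay between -0.26 and 0.03.

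Of the genes that prepare peptides in endosomes, most were higher in T2F3 MPP and 8 of 16 were in T2F3 GMP. In MPP 14 rose and 0 fell, with a median of 0.57, and in GMP 8 rose and 0 fell, with a median of 0.34. Among all tested genes the shares that rose were 20.7% in MPP and 9.25% in GMP. The protease Ctss, which trims the invariant chain in dendritic cells and B cells, stood at 10.09, 11.10 and 10.74 in T2F3 MPP, against 8.46, 9.01, 8.74 and 8.87 in WT MPP. It rose by 1.88 ± 0.18 in MPP (limma adjusted p = 9.97e-07) and by 1.65 in GMP. Cst3, a secreted inhibitor of such proteases, rose by 2.38 ± 0.18 in MPP and 1.40 ± 0.18 in GMP (limma adjusted p = 1.12e-07 and 2.64e-05). Ifi30, a thiol reductase that unfolds antigens, rose by 1.84 and 1.44 in the same order, and Slc11a1, a metal transporter of phagosomes, by 1.37 and 0.73.

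Of 8 genes that set how long class II stays at the surface, 2 rose and 1 fell in each population, with medians of 0.08 in MPP and -0.04 in GMP. In MPP these counts are near the shares of all tested genes (20.7% higher and 19.6% lower). In GMP the shares were 9.25% higher and 6.04% lower, and nothing particular to the list is read from counts this small. Marchf1, a ubiquitin ligase that removes class II from the surface, rose by 2.41 ± 0.20 in MPP and 2.04 ± 0.19 in GMP (limma adjusted p = 2.31e-07 and 1.30e-06). Cd83, a protein known to counter that ligase, rose by 2.95 ± 0.23 and 2.52 ± 0.22. Marchf8, a relative of Marchf1, fell by 0.44 ± 0.11 and 0.43 ± 0.11, with adjusted p of 0.00685 and 0.0109. Arl8b, a lysosomal GTPase, was not called in either (0.22 and -0.03). Of 8 co-stimulators, 5 rose and 0 fell in each population, with medians of 1.21 and 0.65. Rises were called for 20.7% of all tested genes in MPP and for 9.25% in GMP. Cd86, a ligand of CD28, rose by 2.49 ± 0.22 and 2.36 ± 0.21, Cd40 by 1.88 and 1.65, and Icosl by 1.34 and 1.38. Cd48 rose by 1.53 in MPP and 0.69 in GMP, and is itself one of the surface proteins of the MPP gate.

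Other genes that lie among the class II genes did not all move with them. RefSeq orders the region on chromosome 17 as H2-Oa, Brd2, H2-DMa, H2-DMb2, H2-DMb1, Psmb9, Tap1, Psmb8, Tap2, H2-Ob, H2-Ab1, H2-Aa and H2-Eb1. Of the 5 genes in this stretch that are not members, Brd2, Psmb9, Tap1, Psmb8 and Tap2, 2 rose and 0 fell in each population, with medians of 0.29 in MPP and 0.27 in GMP. The shares of all tested genes that rose were 20.7% in MPP and 9.25% in GMP. Psmb9, a subunit of the immunoproteasome, rose by 1.14 ± 0.15 in MPP and 0.60 ± 0.14 in GMP, with adjusted p of 2.62e-05 and 0.0087. Psmb8, another such subunit, rose in MPP (0.79) and stood at 0.27 in GMP (adjusted p = 0.115). Tap1, a chain of the peptide transporter, stood at 0.29 in MPP (adjusted p = 0.107) and rose by 0.44 in GMP. Brd2, a chromatin reader between H2-Oa and H2-DMa, stood at -0.20 in MPP and -0.09 in GMP and was not called.

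**Figure D5:**
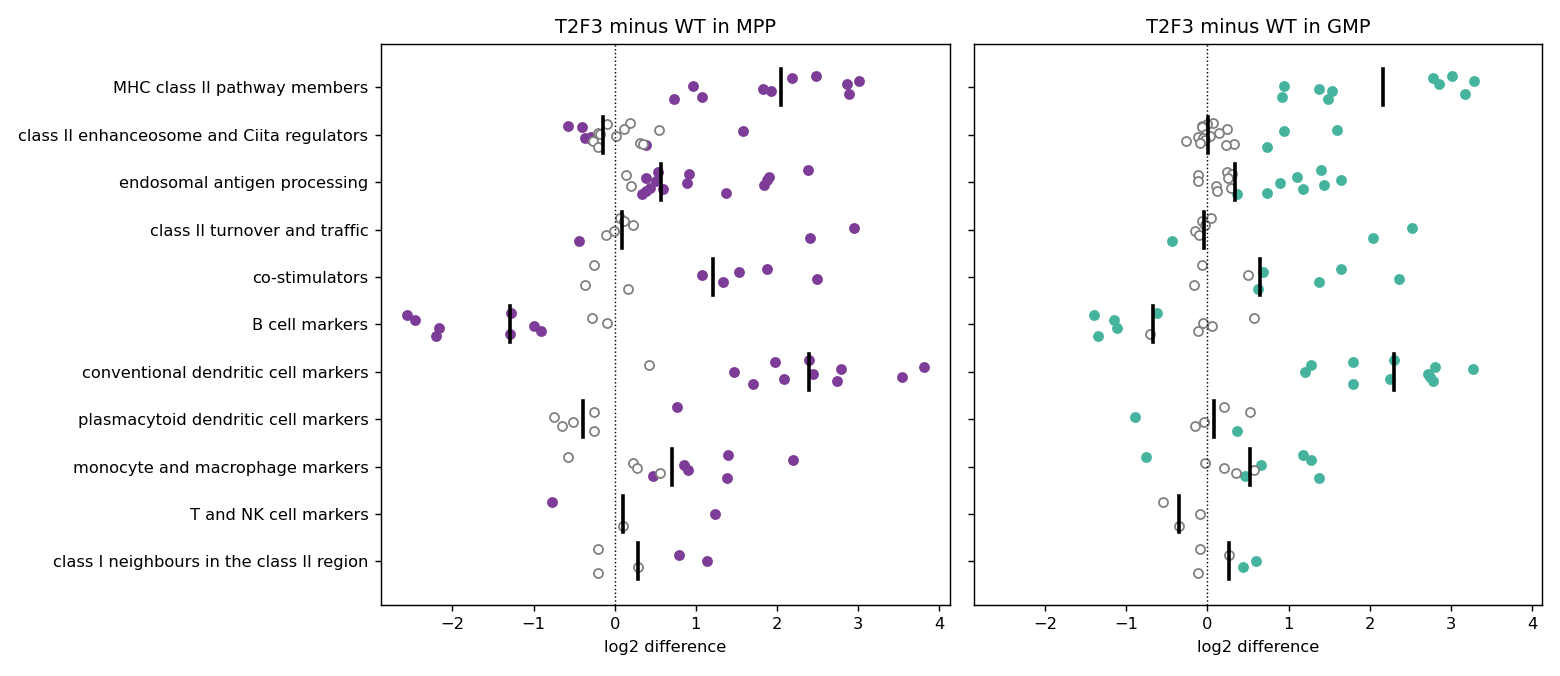
Log2 difference T2F3 minus WT (horizontal axis) for each tested gene of the 10 members and of 10 further lists, in MPP (left) and GMP (right). Filled points passed a limma adjusted p of 0.05, open points did not, and black bars are list medians. The members and the conventional dendritic cell markers have medians of 2.05 and 2.39 in MPP and 2.16 and 2.30 in GMP, while the B cell markers have medians of -1.28 and -0.66.

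Marker lists of cells that use class II moved with the genotype in different directions. As a scale for the counts, 20.7% of all tested genes rose and 19.6% fell in MPP, and 9.25% rose and 6.04% fell in GMP. Of 11 tested conventional dendritic cell markers, 10 rose and 0 fell in MPP, and all 11 rose in GMP, with medians of 2.39 and 2.30. Their summed log2 level ran from 11.97 to 12.62 in T2F3 MPP against 9.47 to 9.98 in WT MPP, and from 11.39 to 11.79 in T2F3 GMP against 9.21 to 9.45 in WT GMP. None of the 12 markers was listed at 0. Xcr1, a chemokine receptor of cross-presenting dendritic cells, stood at 8.83, 9.41 and 9.51 in T2F3 MPP, against 5.82, 6.54, 6.76 and 6.91 in WT MPP. Clec9a, a receptor for dead cells, differed by 2.44 ± 0.21 in MPP and 2.72 ± 0.20 in GMP, the integrin gene Itgae by 3.54 and 2.74, and the langerin gene Cd207 by 3.81 and 2.81. Ccr7, the marker not called in MPP (0.42, adjusted p = 0.152), is named after its value was seen. The part of these markers in the rise of the class II genes was not tested.

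Most tested B cell markers fell in MPP and 5 of 10 fell in GMP, while the class II genes rose in both. Among all tested genes 19.6% fell in MPP and 6.04% in GMP. Of 10 tested B cell markers, 0 rose and 8 fell in MPP, and 0 rose and 5 fell in GMP. Their summed level was 8.81 to 9.23 in T2F3 MPP against 9.47 to 10.04 in WT MPP, and 8.88 to 9.14 in T2F3 GMP against 8.99 to 9.46 in WT GMP, where the groups overlapped. The factor Ebf1 (-2.17 in MPP, -1.11 in GMP), the antigen receptor partner Cd79a (-2.46, -1.15) and the recombinase gene Rag1 (-2.20, -1.35) fell in both. Cd79b, Cd22 and Cr2 are named after their values were seen. Cd79b had the highest mean of the list in each group, at 8.08 in T2F3 MPP, 8.18 in WT MPP, 8.25 in T2F3 GMP and 8.30 in WT GMP. Cd22 and Cr2 had higher means in T2F3 GMP (5.67 and 4.53) than in WT GMP (5.09 and 4.47), and neither was called there.

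For the 3 lists that follow, the shares of all tested genes were 20.7% higher and 19.6% lower in MPP, and 9.25% and 6.04% in GMP. Of 10 tested monocyte and macrophage markers, 6 rose and 0 fell in MPP, and 5 rose and 1 fell in GMP, with medians of 0.70 and 0.52. The summed level was 13.76 to 14.23 in T2F3 MPP against 12.66 to 12.98 in WT MPP, and 14.88 to 15.85 in T2F3 GMP against 14.27 to 14.79 in WT GMP. This sum was higher in GMP than in MPP in both genotypes, which does not hold for each marker. Ccr2 and Cd68 averaged 11.62 and 8.87 in T2F3 GMP, against 11.69 and 8.94 in T2F3 MPP. Of the 10 tested markers, 7 were called higher in GMP in T2F3 and 3 were not called. The chemokine receptor Ccr2 rose by 2.20 in MPP and 1.28 in GMP, the macrophage surface gene Adgre1 by 1.40 and 1.18, and the endosomal glycoprotein gene Cd68 by 0.85 and 0.66. The fractalkine receptor Cx3cr1 rose in MPP (0.90) and stood at 0.58 in GMP (adjusted p = 0.0628). Of 6 tested plasmacytoid dendritic cell markers, 1 rose and 0 fell in MPP, and 1 rose and 1 fell in GMP, with medians of -0.38 and 0.09. The 5 not called in MPP all had lower means in T2F3 MPP than in WT MPP. The summed level of the list was 10.56 to 11.07 in T2F3 MPP against 10.81 to 10.91 in WT MPP, and 10.22 to 10.64 in T2F3 GMP against 10.04 to 10.23 in WT GMP. Bst2, which interferon also induces, rose in MPP (0.77), and in GMP Tcf4, the master factor of these cells, rose by 0.37 while Ly6d fell by 0.89. The fourth, Ccr9, was not called in either population. Counts this small lie near the shares of all tested genes, and nothing particular to the plasmacytoid list is read from them. Of 3 tested T and NK cell markers, 1 rose and 1 fell in MPP and none was called in GMP; the T cell kinase Lck was 1.23 higher in T2F3 MPP, Klrb1c fell by 0.77 and Nkg7 was not called. The T and NK sums were 11.03 to 11.13 in T2F3 MPP against 10.66 to 10.96 in WT MPP, and 11.52 to 12.07 in T2F3 GMP against 11.84 to 12.63 in WT GMP. These sums were largely Nkg7, which averaged 10.76 in T2F3 MPP and 10.66 in WT MPP. Cd3e, Cd3g, Cd3d and Ncr1, named after their values were seen, were not tested because of low means. They averaged 1.94 to 2.56 in T2F3 MPP and 2.52 to 3.20 in WT MPP, each lower in T2F3. No marker of these lists was at 0 in all libraries, and their part in the class II result was not tested.

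Among 11371 named protein-coding genes outside the pathway, likeness to the class II profile was measured as the root-mean-square difference of log2 values over the 15 libraries, each gene centred on its mean. Nearest to the mean of H2-Aa, H2-Ab1 and H2-Eb1 were Gpr141b (0.197), Xcr1 (0.244), Cd36 (0.256), Septin3 (0.261) and Clec9a (0.266). By the same measure Cd74 lay at 0.217 from the classical mean, Ciita at 0.323 and the H2-DM and H2-DO genes at 0.774 to 1.089. Gpr141b, an orphan receptor gene, averaged 8.69 in T2F3 MPP and 5.89 in WT MPP, and 7.59 in T2F3 GMP and 4.77 in WT GMP. Nearest to Ciita were Slamf7 (0.186), Clec9a (0.213), Tlr3 (0.233), Itgax (0.281) and Havcr2 (0.283). Slamf7, a receptor of the SLAM family, averaged 9.06 in T2F3 MPP and 7.05 in WT MPP, and 8.43 in T2F3 GMP and 5.78 in WT GMP. Xcr1, Clec9a and Itgax are in the conventional dendritic cell list above. This ranking describes these 15 libraries and has no test.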

How the data were processed

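Per the labels' protocols, a stranded mRNA kit was used for the RNA-seq libraries. The values used are log2 values that the authors deposited for 15 libraries and 24424 genes under Entrez IDs. The table is named for the regularized log, a transform that shrinks genes with few reads. Per the submitters' processing notes, mm9 was the build and the tools were DESeq2, HOMER, Bowtie and STAR, with no version given. Symbols came from the NCBI gene table of GRCm38.p6 (24345 of 24424 IDs matched). Genotype, population and replicate number in the column names tied each column to its sample. Of 56 samples, the 41 for hydroxymethylcytosine and their inputs were not analysed here.

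The 12133 genes whose mean reached 4 were tested with limma 3.58.1 in R 4.3.3: a mean per group over all 15 libraries, eBayes with trend and robust, two-sided, Benjamini-Hochberg adjustment over all tested genes, threshold 0.05 and no minimum fold. The model was also run on simulated data with independent noise in each gene and library. Such data hold no shifts of whole libraries, so the run cannot check the fit against those. The contrasts, which share libraries, were T2F3 minus WT in MPP and GMP, the difference of these effects, and GMP minus MPP in each genotype. Differences are log2 with limma's SE; levels are group means with the SD over libraries, compared within a gene. Summed levels are log2 of the sum over a list on the linear scale. The members and lists were chosen with earlier results of these data known. All members are named; of each other list, up to 4 genes with the smallest p in a genotype contrast are named, and of all genes the 5 most like each profile. A gene that the rule takes is not reported here. Of 125 list entries 124 were in the table. Alternatives were other filters, a pseudocount of 8, array weights, quantile normalization, centring, eBayes without trend and robust, only the groups of a contrast, replicate blocks and each library left out, also WT GMP 1 with T2F3 GMP 2. Figures were drawn with Matplotlib 3.10.9, and tables were handled with NumPy 2.4.6 and pandas 2.3.3 under Python 3.11.15.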

Additional observations from a re-analysis of the deposited data

Results flagged for a closer look

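In WT MPP, 1 library stood apart from the other 3 for 3 of the 10 genes. WT MPP 1 was at 11.01 for Cd74, 10.03 for H2-Aa and 9.41 for H2-Eb1, each the lowest of its group. The gap to the next library took 0.841, 0.839 and 0.918 of the group's whole range, above the critical value of Dixon's test. For the 10 genes, 20 groups of 4 or 5 libraries were examined and 3 stood out; chance flags about 1 in 20, and the 3 genes share this library. Without WT MPP 1 all 10 genes were still called higher in T2F3 MPP.

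The genotype effect on H2-Ob differed between the populations by 0.76 (GMP minus MPP), by the test of the difference itself. This call was lost in 15 of 25 alternatives, 12 of them with 1 library left out, with a limma adjusted p of up to 0.139.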

How the results depend on the processing

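All 10 genes were called higher in T2F3 MPP and in T2F3 GMP under each of 26 alternatives (260 of 260 values in each population kept direction and call), and the 8 calls of the WT step were kept in all of them. The T2F3 step gave 2 to 10 lower genes with 1 library left out, against 9; 27 of its 260 values lost their call and 8, all of H2-DMb2, gained one. For the difference of effects, H2-Ob was not called with a minimum mean of 6 (0 genes higher, adjusted p = 0.0533), without the trend and robust step (0, adjusted p = 0.0504) and with the number as a replicate block (0, adjusted p = 0.0525), whereas a block of genotype and number as 1 animal kept it, and leaving out 1 library gave 0 to 1 genes higher and 0 to 2 lower. Array weights called 2 genes lower, H2-DMb1 (-0.64) and H2-DMb2 (-0.60). Uncalled values near 0 changed sign: H2-Ab1 and H2-DMa stood at 0.053 and 0.0398 with centring, 0.0297 and 0.0116 with quantile normalization, and 0.0276 and 0.013 with the number as a replicate block, and from -0.28 to 0.19 and from -0.17 to 0.0945 with 1 library left out. On the same terms H2-Aa ran from -0.000562 to 0.5, and H2-DMb1 in the WT step from -0.10 to 0.00504. The cause was not tested.

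Counts over all genes moved more. Array weights gave 7795 calls in MPP (4889 in the main analysis), 4103 in GMP (1855), 1494 for the difference of effects (274) and 4389 for the T2F3 step (2690). Without a filter the difference of effects gave 436, with a minimum mean of 6 it gave 140, and without WT GMP 1 and T2F3 GMP 2 together 1204; GMP alone gave 1180. With 1 library left out the counts ran from 2859 to 5989 in MPP, 1174 to 3759 in GMP, 79 to 586 for the difference of effects, 5115 to 6255 for the WT step and 2077 to 3176 for the T2F3 step.

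Same-numbered MPP and GMP libraries correlated in their deviations from the group means by 0.05, 0.20 and 0.30 in T2F3 and by 0.06, 0.46, 0.11 and 0.38 in WT. Of the 7 pairs 5 were above 0.1, and the labels name no shared animal, so whether the numbers pair the libraries is unknown. The number as a block gave 2732 calls in MPP, and genotype and number as 1 animal gave 4854. Both blocks called all 10 genes higher in MPP and in GMP and all 10 lower in the T2F3 step.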
